A study of Mus musculus with 6 samples.

Results

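Collagen genes outside the type IV network were followed in C2C12 cells, an established mouse myoblast line that fuses into multinucleated myotubes when serum is changed. The members were all gene symbols of the form Col, number, a, number, without Col4a1 to Col4a6 and Col18a1. They came to 37 of the 43074 symbols in the count table, and the 7 genes left out were in the table too. By structure they fell into 11 fibrillar, 6 beaded, 9 FACIT (fibril-associated collagens with interrupted triple helices) and 3 short-chain genes. A further 4 were transmembrane collagens, and the rest were the anchoring-fibril gene Col7a1, the multiplexin Col15a1, and Col26a1 and Col28a1, which stand outside these classes.

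The cells were labelled wild type, and all were grown in DMEM with 10% fetal bovine serum. The day 0 group was sampled untreated. The other 2 groups were switched for 4 days to differentiation medium with 5% horse serum, which held either DMSO or 1 mM 4-phenylbutyric acid (4-PBA), an aromatic short-chain fatty acid known both as a chemical chaperone and as an agent that inhibits histone deacetylases. Each group had 2 libraries of directional, DNase-treated total RNA, and the labels place all 6 in batch 1. Whether the replicates came from separate cultures is not stated, so p-values measure the spread between these libraries, which may be technical.

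Collagens are trimers of chains wound into a triple helix, in which glycine recurs at a fixed spacing and many prolines are hydroxylated in the endoplasmic reticulum. Fibrillar collagens pack into the tensile fibrils of muscle connective tissue, FACIT collagens bind to the surface of those fibrils, and beaded type VI collagen forms microfibrils next to the muscle basement membrane. Mutations in the type VI chains cause Bethlem and Ullrich muscular dystrophy, which makes this class the one best known from muscle disease.

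Library totals ran from 47908926 to 74697397 counts, so 1 CPM (counts scaled to library size, with TMM factors) stood for 48.6 to 74.2 counts. The labelled myoblast identity was checked with 8 muscle markers, all of which passed the expression filter, and their summed level ran from 1100 to 1110 CPM at day 0, 6750 to 6990 CPM under DMSO and 6520 to 6620 CPM under 4-PBA. Most of the day 0 sum was Des (a mean of 881 CPM). Under DMSO Myf5 was lower than at day 0 (log2 fold change -1.14, SE 0.0572, adjusted p 5.96e-19) and the other muscle markers were called higher. Against DMSO, 4-PBA lowered the level of Des (-0.11, adjusted p 0.00881), Mymk (-0.17, adjusted p 0.0134) and Acta1 (-0.094, adjusted p 0.045). The remaining muscle markers were not called there. None of the 4 adipocyte markers passed the filter, and neither did Ptprc and Itgam of the 4 leukocyte markers, whose sum was 5.43 to 5.70 CPM at day 0 and 1.45 to 2.54 CPM at day 4. Most of the leukocyte sum was Cd68, with means of 5.39 CPM at day 0, 1.90 CPM under DMSO and 1.84 CPM under 4-PBA. The 4 endothelial markers summed to 1.35 to 1.69 CPM at day 0, 2.28 to 2.58 CPM under DMSO and 1.82 to 1.87 CPM under 4-PBA. For DMSO against day 0 Tek was called higher (log2 fold change 1.68, SE 0.271). Kdr (-3.77, SE 0.958) and Pecam1 (-1.25, SE 0.56) were called lower there, and Cdh5 was not called. Fibroblast markers (5 of 6 tested) summed to 174 to 180 CPM at day 0, 335 to 337 CPM under DMSO and 344 to 346 CPM under 4-PBA, with Thy1 below the filter. Most of that sum was Ly6a (162 CPM on average at day 0 and 315 CPM under DMSO), while Pdgfra was lower under DMSO (means of 13.9 CPM at day 0 and 11.1 CPM under DMSO, a log2 fold change of -0.32 with an SE of 0.0864 and an adjusted p of 0.00153). The other tested markers, Ly6a, Dpt, Pi16 and Clec3b, were called higher under DMSO than at day 0. Their log2 fold changes were 0.955 (SE 0.0314), 1.62 (SE 0.293), 4.75 (SE 0.203) and 2.18 (SE 0.394). Under DMSO the means of Dpt, Pi16 and Clec3b were 1.47, 7.72 and 1.01 CPM. In these bulk libraries more cells of a type cannot be told apart from more RNA per cell, and the part of cell composition in the collagen changes was not tested.

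Every one of the 37 members had at least 1 count in some library, and 32 passed the filter on low counts and were tested. The members below the filter were the cartilage collagen genes Col2a1, Col9a1 and Col9a2, the beaded Col6a5 and the FACIT Col22a1, which is known from the muscle-tendon junction. Their counts were low throughout, at most 10 per library for Col2a1, 3 for Col9a1, 2 for Col9a2, 6 for Col6a5 and 14 for Col22a1. At day 0 Col6a5 had 0 counts in both libraries, which allows up to 0.0617 and 0.0427 CPM (3 counts, counting error only). A stricter requirement, a mean of 1 CPM and 10 counts in both libraries of some group, left 23 members, among them the 10 tested fibrillar genes.

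Together the members took 0.657% and 0.660% of all counts at day 0, 1.34% and 1.30% under DMSO, and 1.300% and 1.31% under 4-PBA. Per kilobase of transcript, the fibrillar class held 76.0% and 75.9% of the summed member level at day 0 and 85.4% to 86.0% in the 4 day 4 libraries (70.5% to 70.7% and 83.2% to 83.9% per kilobase of all annotated exons). The fibrillar sum stood at 768 and 777 CPM per kb at day 0, 1901 and 1839 under DMSO, and 1824 and 1854 under 4-PBA, and the longer exon lengths gave 476 and 480 at day 0 and 1258 and 1215 under DMSO. The short-chain sum was higher at day 4 as well, at 13.9 and 14.3 CPM per kb at day 0, 58.2 and 54.5 under DMSO and 56.9 and 56.1 under 4-PBA. The beaded sum lay at 186 and 188 CPM per kb at day 0, 201 and 199.6 under DMSO, and 202 and 203 under 4-PBA. Its direction depended on the scale and not on which length was used: without division by length the same genes summed to 1416 and 1434 CPM at day 0 and 1320.3 and 1275 CPM under DMSO, and per kilobase of all annotated exons to 155 and 157 at day 0 and 165 and 164 under DMSO. The FACIT sum was 37.2 and 38.7 CPM per kb at day 0, 46.2 and 44.0 under DMSO, and 49.2 and 49.3 under 4-PBA. Most of it was Col12a1, with means of 28.3, 31.2 and 35.4 CPM per kb in the same order.

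**Figure D1:**
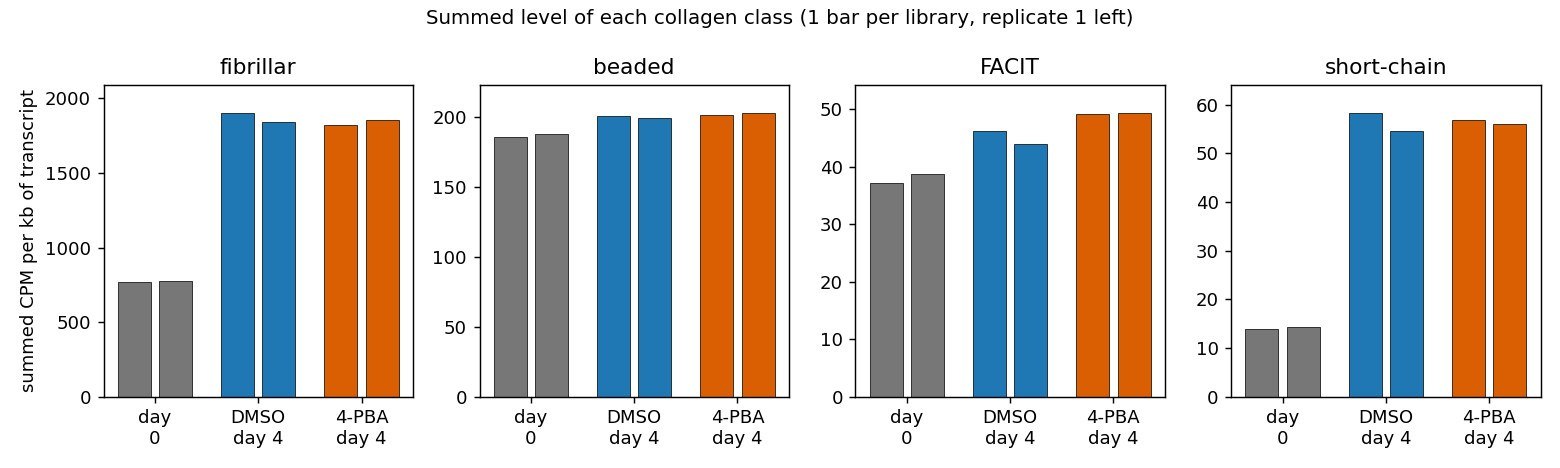
Summed level of the fibrillar, beaded, FACIT and short-chain genes in each of the 6 libraries, in CPM per kilobase of transcript (1 bar per library, separate vertical axes that start at 0). The fibrillar and short-chain bars are higher at day 4 than at day 0, the beaded bars lie between 186 and 203, and the 2 FACIT bars under 4-PBA (49.2 and 49.3) are above both under DMSO (46.2 and 44.0). Col8a1 makes up nearly all of the short-chain bars and Col12a1 most of the FACIT bars.

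The order of the members by level per kilobase of the longest coding transcript differed between day 0 and DMSO. At day 0 Col3a1 (301 ± 3.32 CPM per kb, SD, n = 2) was highest, followed by Col1a2 (227 ± 2.98), Col6a3 (107 ± 1.12), Col5a2 (85.0 ± 0.805) and Col5a1 (78.4 ± 0.298). Col1a1 was seventh at 49.8 ± 0.163 CPM per kb, below Col6a1 at 54.8 ± 0.855. With DMSO Col3a1 (761 ± 3.95) and Col1a2 (364 ± 19.1) still led, Col1a1 came next at 252 ± 16.2, and Col6a3 had moved down to eighth place at 75.4 ± 4.80. Some neighbours in that order lay close together: Col5a1 (201 ± 2.73) and Col5a2 (193 ± 6.25), and Col6a1 (82.9 ± 2.68) and Col6a3, were each apart by about the size of their combined spread. Per kilobase of all annotated exons the order under DMSO was different, with Col3a1 at 431 ± 2.24, Col1a1 at 227 ± 14.6, Col5a1 at 199 ± 2.70 and Col1a2 at 157 ± 8.21, while the places of Col1a1 and Col6a3 at day 0, and of Col6a3 under DMSO, did not change.

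The step from day 0 to DMSO at day 4 asked how the collagens changed as myoblasts differentiated. Of the 32 tested members, 23 rose and 3 fell at an adjusted p-value under 0.05, that is 26 of 32 or 81.2%, beside 66.3% of all 17433 tested genes in either direction (33.8% higher and 32.6% lower). The median log2 fold change of the tested members was 1.22, against 0.023 over all tested genes. A rise of at least 2-fold was called for 17 members and a fall of that size for 2, where 13.2% and 8.78% of all tested genes met these rules (21.9% in either direction). The day 0 and DMSO libraries did not overlap for 28 members, and for 81.9% of all tested genes. By class, 9 of 10 fibrillar, 2 of 5 beaded, 4 of 6 FACIT and 3 of 3 short-chain genes rose, and 1 beaded gene, Col6a3, fell.

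Comparing 4-PBA with DMSO addressed the effect of the drug on differentiating cells. Of the same 32 members 5 were higher and 1 was lower under 4-PBA, that is 6 of 32 or 18.8%, beside 4.90% of all tested genes (2.13% higher and 2.78% lower). The 5 that rose were Col8a2, Col11a1, Col12a1, Col6a2 and Col6a1, and the member that fell was Col6a3. No member changed 2-fold with an adjusted p-value under 0.05, a rule met by 0.0688% of all tested genes (0.0229% higher and 0.0459% lower). The median log2 fold change over the 32 members was -0.013, against 0.0021 over all tested genes. The 2 groups did not overlap for 19 of the 32 members, and for 45.5% of all tested genes.

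**Figure D2:**
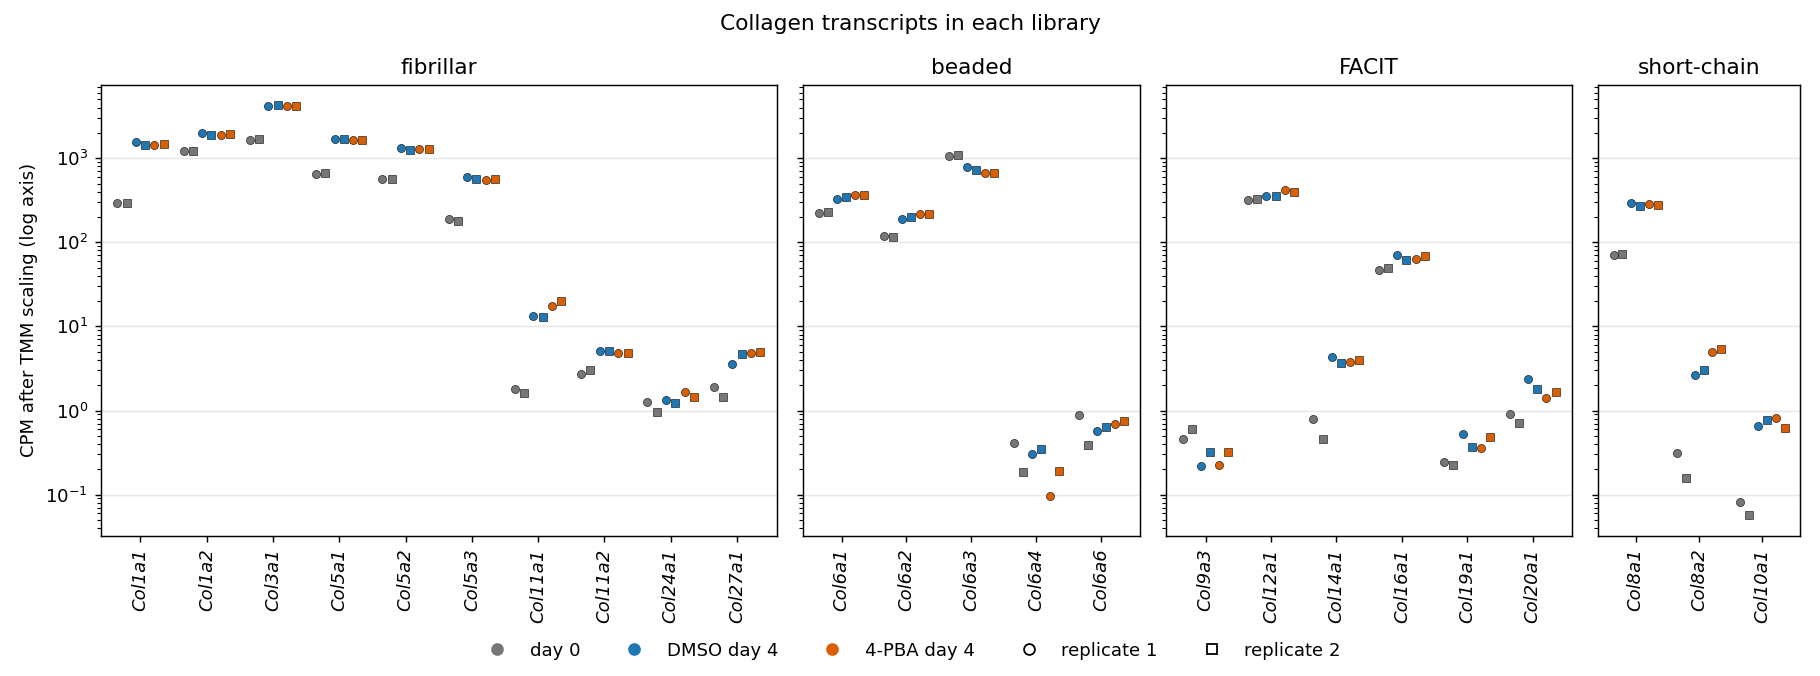
Level of the 24 tested fibrillar, beaded, FACIT and short-chain genes in each library, in CPM on a log axis (circle, replicate 1; square, replicate 2; colour, group). Most fibrillar genes sit higher in the 4 day 4 libraries than at day 0, Col6a3 sits lower, and Col8a2 and Col11a1 show a further step from DMSO to 4-PBA.

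Type I collagen, the main tensile fibril of tendon, skin and muscle connective tissue, is a trimer that normally holds more Col1a1 than Col1a2 chains. Col1a1 stood at 296 and 295 CPM at day 0, 1559 and 1424 CPM under DMSO, and 1449 and 1478 CPM under 4-PBA. The day 4 libraries were all far above day 0, and the DMSO and 4-PBA libraries overlapped. Its log2 fold change was 2.34 (SE 0.0343, edgeR adjusted p 5.81e-27) under DMSO against day 0 and -0.027 (SE 0.0324, adjusted p 0.766) between 4-PBA and DMSO. Without DMSO replicate 2, the lower of that pair, the second value was -0.090 with an adjusted p of 0.0191, and without DMSO replicate 1 it was 0.039. Bone markers (3 of 5 tested, with Bglap and Ibsp below the filter) summed to 83.1 to 85.3 CPM at day 0, 57.5 to 63.5 CPM under DMSO and 53.0 to 55.6 CPM under 4-PBA. Most of that sum was Runx2, with means of 80.0, 59.2 and 53.0 CPM in the same order. For DMSO against day 0 the log2 fold changes were -0.44 (SE 0.0481) for Runx2 and -1.87 (SE 0.224) for Phex, while Sp7 was not called (adjusted p 0.676). The part of bone-like expression in the Col1a1 value was not tested.

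Col1a2 changed much less than its partner. It stood at 1204 and 1226 CPM at day 0, 2018 and 1873 CPM under DMSO, and 1902 and 1963 CPM under 4-PBA. The log2 fold change was 0.68 (SE 0.0302, adjusted p 1.94e-18) under DMSO against day 0 and -0.0095 (SE 0.03, adjusted p 0.928) between the day 4 groups. The ratio of Col1a1 to Col1a2 counts within a library was therefore 0.246 and 0.240 at day 0, 0.773 and 0.760 under DMSO, and 0.762 and 0.753 under 4-PBA. Per kilobase of transcript these ratios were 0.222 and 0.217 at day 0, 0.697 and 0.685 under DMSO, and 0.687 and 0.679 under 4-PBA, so on this length Col1a2 was the more abundant transcript of the pair in all 6 libraries. The order at day 4 depended on the length used: per kilobase of all annotated exons, which are far longer for Col1a2, the ratios were 0.465 and 0.455 at day 0, 1.46 and 1.44 under DMSO, and 1.44 and 1.43 under 4-PBA. With 2 libraries in each group, no reassignment of labels can give a two-sided exact p-value under 0.33, so the ratios are given without a test.

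Col3a1, whose product forms homotrimers that join type I fibrils, stood at 1664 and 1690 CPM at day 0, 4218 and 4249 CPM under DMSO, and 4134 and 4179 CPM under 4-PBA. It rose 2.52-fold under DMSO against day 0 (log2 fold change 1.34, SE 0.0253, adjusted p 1.86e-31). For the drug the log2 fold change was -0.026 (SE 0.0248, adjusted p 0.673), with both 4-PBA libraries just under both DMSO libraries. Because Col1a1 rose more than Col3a1, the ratio of Col3a1 to Col1a1 counts was 5.62 and 5.74 at day 0, 2.71 and 2.98 under DMSO, and 2.85 and 2.83 under 4-PBA.

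Type V collagen lies within type I fibrils and sets how they start and how thick they grow. Col5a1 stood at 657 and 661 CPM at day 0, 1709 and 1676 CPM under DMSO, and 1638 and 1629 CPM under 4-PBA, and Col5a2, its usual partner, at 559.6 and 567, 1308 and 1249.8, and 1275 and 1299.8 CPM. Col5a3, the less common chain, stood at 187 and 180.1 CPM at day 0, 602 and 574 CPM under DMSO, and 549.5 and 567 CPM under 4-PBA. All 3 genes were higher in each day 4 library than in either day 0 library, where 81.9% of all tested genes did not overlap between day 0 and DMSO. The log2 fold changes under DMSO were 1.36 (SE 0.0269) for Col5a1, 1.18 (SE 0.0285) for Col5a2 and 1.68 (SE 0.0319) for Col5a3. Between 4-PBA and DMSO the values were -0.051 (adjusted p 0.330), 0.0093 (adjusted p 0.924) and -0.074 (adjusted p 0.188), and without DMSO replicate 2 the value for Col5a3 was -0.11 with an adjusted p of 0.0159. The Col5a3 to Col5a1 count ratio was 0.284 and 0.272 at day 0 and between 0.336 and 0.352 in the 4 day 4 libraries.

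Type XI collagen is closely related to type V and is known mainly from cartilage. Col11a1 stood at 1.81 and 1.62 CPM at day 0, 13.4 and 13.0 CPM under DMSO, and 17.6 and 20.1 CPM under 4-PBA. The groups formed separate steps with no overlap. Between day 0 and DMSO 81.9% of all tested genes did not overlap, and between DMSO and 4-PBA 45.5%. Col11a1 rose 7.75-fold under DMSO against day 0 (log2 fold change 2.95, SE 0.119, adjusted p 8.37e-22) and a further 1.43-fold from DMSO to 4-PBA (0.51, SE 0.0868, adjusted p 2e-04), so that 4-PBA stood 11.1-fold above day 0. The DMSO libraries enter both of the first 2 comparisons, which are therefore not independent. Per kilobase of transcript Col11a1 remained a minor transcript, at 1.72 ± 0.037 CPM per kb under DMSO and 2.46 ± 0.225 under 4-PBA (SD, n = 2), and its counts were 0.00786 and 0.00777 of those of Col5a1 under DMSO and 0.0108 and 0.0123 under 4-PBA.

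Its partner Col11a2 was not called between 4-PBA and DMSO, and both of its 4-PBA libraries lay just under both DMSO libraries. Col11a2 stood at 2.72 and 3.02 CPM at day 0, 5.09 and 5.10 CPM under DMSO, and 4.86 and 4.88 CPM under 4-PBA. It rose 1.77-fold under DMSO (a log2 fold change of 0.82 with an SE of 0.144 and an adjusted p of 5.94e-06), and the value between 4-PBA and DMSO was -0.064 (SE 0.136, adjusted p 0.887). Of the 6 cartilage markers only Sox9 and Matn3 were tested, while Acan, Matn1, Comp and Snorc, which mark cartilage matrix, were below the filter. The list summed to 119 to 121 CPM at day 0, 132 CPM under DMSO and 107 to 113 CPM under 4-PBA. Sox9 itself, a cartilage transcription factor, was higher under DMSO than at day 0 (log2 fold change 0.14, SE 0.0358, adjusted p 6.98e-04). It was lower under 4-PBA (a mean of 109 CPM, where DMSO had a mean of 131 CPM, a log2 fold change of -0.27 with an SE of 0.0358 and an adjusted p of 5.76e-06). Matn3 had means of 1.00 CPM at day 0, 0.613 CPM under DMSO and 0.829 CPM under 4-PBA, and was called in no comparison. The part of cartilage-like expression in the Col11a1 value was not tested.

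The last 2 fibrillar genes, Col24a1 and Col27a1, encode minor chains that resemble invertebrate fibrillar collagens. Col27a1 stood at 1.91 and 1.45 CPM at day 0, 3.53 and 4.69 CPM under DMSO, and 4.77 and 4.91 CPM under 4-PBA. It rose under DMSO (a log2 fold change of 1.31 with an SE of 0.181 and an adjusted p of 7.02e-08), and its value of 0.23 (SE 0.159) between 4-PBA and DMSO had an adjusted p of 0.520. Col24a1 was called in none of the 3 comparisons. It stood at 1.26 and 0.969 CPM at day 0, 1.35 and 1.24 CPM under DMSO, and 1.64 and 1.47 CPM under 4-PBA, with adjusted p-values of 0.435, 0.659 and 0.0809 for DMSO against day 0, 4-PBA against DMSO and 4-PBA against day 0.

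The beaded class showed opposite movements within 1 protein. Col6a1, Col6a2 and Col6a3 encode the chains that wind together into the classical type VI monomer, and Col6a3 is the longest of them. Col6a1 and Col6a2 rose from day 0 to DMSO and were higher again under 4-PBA, whereas Col6a3 fell from day 0 to DMSO and was lower again under 4-PBA.

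Col6a1 stood at 222 and 227 CPM at day 0, 332 and 348 CPM under DMSO, and 368 and 369.5 CPM under 4-PBA. Col6a2 ran in the same order, at 119 and 116, 191 and 198, and 215 and 215 CPM. Col6a3 stood at 1074 and 1089.7 CPM at day 0, 797 and 728 CPM under DMSO, and 662 and 669 CPM under 4-PBA. No 2 groups overlapped for any of these genes. Of all tested genes, 81.9% did not overlap between day 0 and DMSO, 45.5% between DMSO and 4-PBA, and 81.8% between day 0 and 4-PBA. With DMSO against day 0 the log2 fold changes were 0.60 (SE 0.031, adjusted p 1.4e-18) for Col6a1, 0.73 (SE 0.0336, adjusted p 4.93e-20) for Col6a2 and -0.50 (SE 0.0324, adjusted p 8.44e-14) for Col6a3.

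The differences between 4-PBA and DMSO were small next to those between DMSO and day 0. Against DMSO the log2 fold change was 0.12 (SE 0.0306, adjusted p 0.0159) for Col6a1, 0.15 (SE 0.0328, adjusted p 0.00508) for Col6a2 and -0.20 (SE 0.0324, adjusted p 3.44e-04) for Col6a3, that is levels 8.56% and 10.6% higher for the first pair and a Col6a3 level that fell by 12.7%. The calls for Col6a1 and Col6a2 needed both 4-PBA libraries: without replicate 1 or 2 of 4-PBA the adjusted p-values were 0.166 and 0.194 for Col6a1 and 0.0811 and 0.0972 for Col6a2, with log2 fold changes that stayed between 0.12 and 0.15. Col6a1 also lost its call without DMSO replicate 1 (log2 fold change 0.085, adjusted p 0.0946). Col6a3 was called in every one of these fits, but its value ran from -0.13 without DMSO replicate 1 to -0.26 without DMSO replicate 2.

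The ratio of Col6a3 to Col6a1 counts within a library was 4.83 and 4.80 at day 0, 2.40 and 2.09 under DMSO, and 1.80 and 1.81 under 4-PBA. Per kilobase of transcript the ratio was 1.96 and 1.95 at day 0, 0.973 and 0.850 under DMSO, and 0.729 and 0.735 under 4-PBA, so Col6a3 was the more abundant transcript of the pair at day 0 and the less abundant one at day 4. The ratio of Col6a1 to Col6a2 counts moved far less, from 1.87 and 1.95 to 1.74 and 1.75 under DMSO and 1.71 and 1.71 under 4-PBA. Col6a4, Col6a5 and Col6a6 encode chains that can take the place of Col6a3 in the trimer, and all were close to the detection limit. Col6a4 had 20 and 13 counts at day 0, 19 and 26 under DMSO, and 6 and 12 under 4-PBA, and was called in no comparison (for 4-PBA against DMSO, log2 fold change -1.16, SE 0.605, adjusted p 0.338). Col6a6 had between 27 and 47 counts in each library and was not called either.

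**Figure D3:**
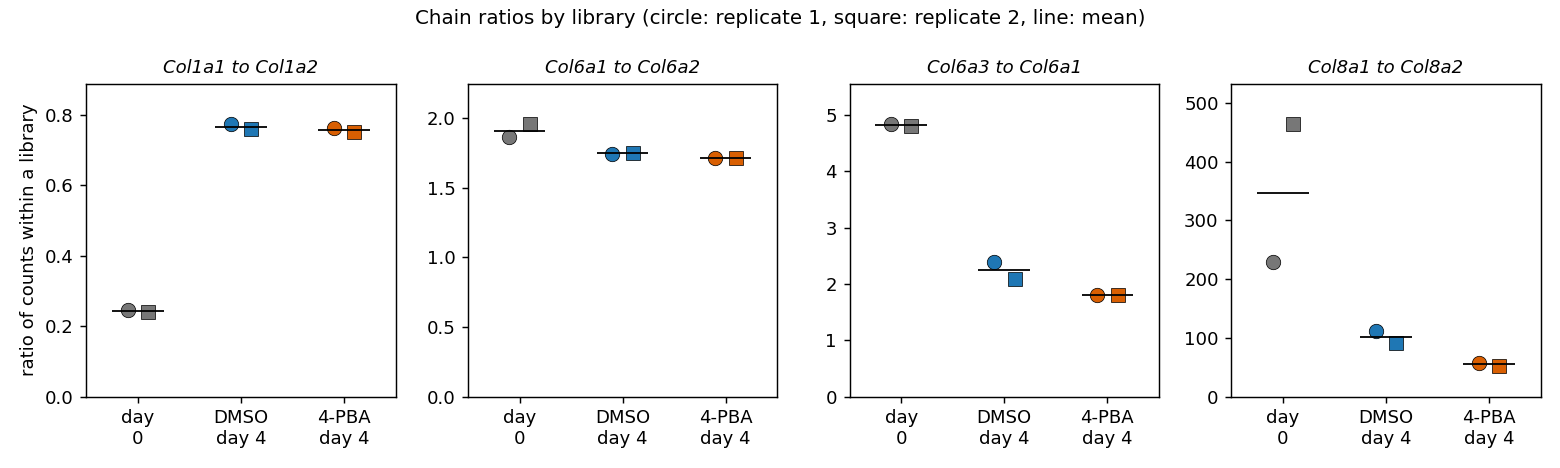
Ratio of counts of paired chains within each library (circle, replicate 1; square, replicate 2; line, mean of the 2 libraries; axes start at 0). Col1a1 to Col1a2 is higher at day 4 (0.753 to 0.773) than at day 0 (0.240 and 0.246), Col6a3 to Col6a1 steps down from 4.83 and 4.80 at day 0 to 1.80 and 1.81 under 4-PBA, and Col8a1 to Col8a2 is lowest under 4-PBA.

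Because the type VI genes moved in opposite directions, the sequence before their annotated starts is shown for comparison. Col6a1 and Col6a2 are neighbours on mouse chromosome 10, and Col6a3 lies apart from them on chromosome 1. The 250 bases before the start were taken from RefSeq on build GRCm38.p6, all on the minus strand and read 5′ to 3′. They lie at chr10:76726045-76726294 for Col6a1, chr10:76623405-76623654 for Col6a2 and chr1:90843972-90844221 for Col6a3. Capitals mark matches, on either strand, to any of 7 short motifs: TATAAA (the core promoter motif bound by TBP), CCAAT (bound by the factor NF-Y), CAGCTG (an E-box that myogenic factors can bind), TGANTCA (AP-1), GCGNGGGCG (Egr), GGGNNTTTC (part of the NF-κB motif) and GGGCGG (GC box).
Col6a1: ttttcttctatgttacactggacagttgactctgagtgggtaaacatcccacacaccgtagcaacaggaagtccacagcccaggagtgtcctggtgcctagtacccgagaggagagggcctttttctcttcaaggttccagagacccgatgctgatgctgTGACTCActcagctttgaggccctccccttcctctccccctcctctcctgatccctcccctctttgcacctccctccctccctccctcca
Col6a2: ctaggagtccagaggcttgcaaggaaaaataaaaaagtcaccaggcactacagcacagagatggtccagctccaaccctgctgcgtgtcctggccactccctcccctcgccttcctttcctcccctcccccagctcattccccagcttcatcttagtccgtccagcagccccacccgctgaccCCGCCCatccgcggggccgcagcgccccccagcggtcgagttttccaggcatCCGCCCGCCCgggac
Col6a3: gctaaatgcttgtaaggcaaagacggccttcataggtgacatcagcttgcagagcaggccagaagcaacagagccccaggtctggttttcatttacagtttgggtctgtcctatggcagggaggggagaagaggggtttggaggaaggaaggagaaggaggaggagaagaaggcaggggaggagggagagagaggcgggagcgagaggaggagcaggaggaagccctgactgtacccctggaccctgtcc
Col6a1 has 1 match, to TGANTCA. The Col6a2 window has 3 matches to GGGCGG, read here as CCGCCC on the other strand, of which the last pair overlap, and a second RefSeq start of the gene has 1. In Col6a3 none of the 7 motifs was found in this window, which says nothing about factors that bind elsewhere.

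FACIT collagens decorate fibrils without forming their own. Col12a1, whose product links fibrils to other matrix in muscle and tendon and is mutated in a form of congenital myopathy, stood at 319 and 332 CPM at day 0, 360.1 and 358 CPM under DMSO, and 414 and 401 CPM under 4-PBA. The groups did not overlap, beside 81.9% of all tested genes for day 0 and DMSO and 45.5% for DMSO and 4-PBA. The step from DMSO to 4-PBA (log2 fold change 0.18, SE 0.0302, adjusted p 1.39e-04) was about as large as that from day 0 to DMSO (0.14, SE 0.0303, adjusted p 1.06e-04), and the same DMSO libraries enter both. Since Col1a1 rose much more, the ratio of Col12a1 to Col1a1 counts was 1.08 and 1.13 at day 0, 0.231 and 0.251 under DMSO, and 0.286 and 0.271 under 4-PBA.

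A tendon factor moved beside it: Scx stood at 78.9 and 77.3 CPM at day 0, 128 and 141 CPM under DMSO, and 149.7 and 145 CPM under 4-PBA (for 4-PBA against DMSO, log2 fold change 0.13, SE 0.0388, adjusted p 0.0423). Of the 4 tendon markers, Tnmd and Kera were below the filter, and the list summed to 77.6 to 79.2 CPM at day 0, 129 to 141 CPM under DMSO and 146 to 150.0 CPM under 4-PBA. Nearly all of that sum was Scx itself. Mkx, the other tested marker, had means of 0.315, 0.337 and 0.427 CPM in the same order and was called in no comparison. The part of Scx in the Col12a1 value was not tested.

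Of the 5 other tested FACIT genes, Col16a1, Col14a1 and Col20a1 rose under DMSO, where 33.8% of all tested genes rose. None of the 5 was called between 4-PBA and DMSO, beside 4.90% of all tested genes. Col16a1, a minor fibril-associated chain, stood at 46.4 and 49.0 CPM at day 0, 70.4 and 61.0 CPM under DMSO, and 63.4 and 69.1 CPM under 4-PBA. Col14a1, a relative of Col12a1, stood at 0.802 and 0.456 CPM at day 0, 4.36 and 3.69 CPM under DMSO, and 3.79 and 3.98 CPM under 4-PBA. Col20a1 stood at 0.905 and 0.712, 2.38 and 1.82, and 1.42 and 1.64 CPM in the same order. For each of these genes both groups of day 4 libraries lay above day 0, where 81.9% of all tested genes did not overlap between day 0 and DMSO. The log2 fold changes under DMSO were 0.46 (SE 0.062) for Col16a1, 2.73 (SE 0.222) for Col14a1 and 1.39 (SE 0.251) for Col20a1.

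Between 4-PBA and DMSO the values were 0.014 (SE 0.0605, adjusted p 0.947) for Col16a1, -0.050 (SE 0.171, adjusted p 0.932) for Col14a1 and -0.45 (SE 0.23, adjusted p 0.326) for Col20a1. Both 4-PBA libraries of Col20a1 lay under both DMSO libraries, yet the difference did not pass the test at this depth. Col19a1, with 12 to 33 counts per library, and the cartilage chain Col9a3, with 14 to 42, were called in no comparison.

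The short-chain class holds Col8a1 and Col8a2, which form hexagonal lattices in the membrane under the corneal endothelium and in vessel walls, and Col10a1, a product of hypertrophic cartilage. All 3 rose under DMSO against day 0, where 33.8% of all tested genes rose. Their log2 fold changes were 1.98 (SE 0.0358, adjusted p 4.75e-32) for Col8a1, 3.67 (SE 0.27, adjusted p 2.51e-14) for Col8a2 and 3.36 (SE 0.532, adjusted p 1.05e-06) for Col10a1. The last rests on 4 counts in each day 0 library, and the value for Col8a2 ran from 3.19 to 4.16 when 1 day 0 library was left out. Only Col8a2 was called between 4-PBA and DMSO.

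Col8a1 stood at 70.6 and 72.6 CPM at day 0, 293 and 274 CPM under DMSO, and 284 and 279 CPM under 4-PBA, so its 2 day 4 groups overlapped (log2 fold change -0.010, SE 0.0334, adjusted p 0.931). Col8a2 stood at 0.309 and 0.157 CPM at day 0, 2.65 and 3.01 CPM under DMSO, and 4.94 and 5.38 CPM under 4-PBA. Behind these levels were 15 and 11 counts at day 0, 167 and 223 under DMSO and 307 and 334 under 4-PBA. The 4-PBA level was 1.82-fold that of DMSO (a log2 fold change of 0.87 with an SE of 0.17 and an adjusted p of 0.00121), and leaving out any 1 library moved the log2 fold change between 0.78 and 0.96.

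Relative to Col8a1, the Col8a2 transcript became less scarce in steps. The ratio of Col8a1 to Col8a2 counts was 229 and 463 at day 0, 111 and 91.0 under DMSO, and 57.3 and 51.9 under 4-PBA. The day 0 ratios rest on 15 and 11 Col8a2 counts. Per kilobase of transcript the ratio was 94.0 and 77.2 under DMSO and 48.6 and 44.0 under 4-PBA (63.5 and 52.2, then 32.9 and 29.8, per kilobase of all annotated exons). Col10a1 stood at 0.0823 and 0.0570 CPM at day 0, 0.650 and 0.768 CPM under DMSO, and 0.821 and 0.628 CPM under 4-PBA, with a log2 fold change of 0.028 (SE 0.371) between the day 4 groups. Exons of Col10a1 overlap Nt5dc1 on the opposite strand, and as the labels do not say whether counting used strand, its level is uncertain.

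Col8a2 and Col11a1 had the largest called rises among the members under 4-PBA, and the 250 bases before their RefSeq starts (GRCm38.p6, both on the plus strand) are shown with the same 7 motifs in capitals. They lie at chr4:126286544-126286793 for Col8a2 and chr3:114030290-114030539 for Col11a1.
Col8a2: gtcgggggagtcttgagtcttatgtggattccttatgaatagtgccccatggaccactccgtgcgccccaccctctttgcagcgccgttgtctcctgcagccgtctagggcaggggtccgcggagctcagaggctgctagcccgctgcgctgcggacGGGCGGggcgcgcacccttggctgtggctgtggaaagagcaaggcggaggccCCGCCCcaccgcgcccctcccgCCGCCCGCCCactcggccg
Col11a1: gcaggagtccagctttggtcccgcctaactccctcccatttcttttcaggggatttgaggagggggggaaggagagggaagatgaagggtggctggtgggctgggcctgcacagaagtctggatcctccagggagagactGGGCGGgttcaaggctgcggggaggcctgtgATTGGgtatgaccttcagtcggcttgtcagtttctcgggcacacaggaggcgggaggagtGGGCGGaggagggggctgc
Col8a2 has 4 matches to GGGCGG, of which the last pair overlap, and Col11a1 has 2, together with a CCAAT match read as ATTGG on the other strand. RefSeq windows (250 bases before to 50 after a start) were held for 29 of the 37 members, 31 windows in all. Among these, GGGCGG was in 18 (58.1%), where 35.7% of all 32851 windows had it. The E-box CAGCTG was in 7 (22.6%, against 16.3% of all windows), TATAAA in 5 (16.1% against 13.6%) and CCAAT in 9 (29.0% against 37.4%). The motifs of AP-1 (Col6a1), Egr (Col8a1) and NF-κB (Col17a1) each occurred in 1 member window (3.23%), where 7.81%, 5.55% and 4.36% of all windows had them. In Col8a1 the Egr match overlaps a GGGCGG match. A match is a description of letters and was not tested for binding.

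Outside these classes the direction of change was mixed. Col7a1, which forms the anchoring fibrils of skin, fell from 33.3 and 33.9 CPM at day 0 to 9.73 and 10.0 CPM under DMSO, and stood at 9.47 and 9.61 CPM under 4-PBA. Its log2 fold change under DMSO was -1.77 (SE 0.074, adjusted p 2.86e-21). Col17a1, a transmembrane collagen of hemidesmosomes, fell from 7.22 and 7.24 CPM to 3.23 and 3.73 CPM under DMSO (-1.05, SE 0.136, adjusted p 2.01e-08) and stood at 3.61 and 3.30 CPM under 4-PBA. These 2 genes of skin attachment and Col6a3 were the members that fell.

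The remaining tested members with a call rose under DMSO: Col15a1, a collagen of the zone around muscle basement membranes, Col26a1, Col28a1, and the transmembrane Col13a1, which is known from the neuromuscular junction, and Col23a1. Col15a1 stood at 1.36 and 1.07 CPM at day 0, 2.79 and 3.57 CPM under DMSO, and 2.88 and 2.995 CPM under 4-PBA. Col28a1 stood at 0.453 and 0.541, 3.90 and 3.94, and 4.14 and 4.48 CPM in the same order. The log2 fold changes of the 5 genes under DMSO lay between 1.26 (SE 0.414) for Col23a1 and 2.96 (SE 0.212) for Col28a1. No day 0 library of these genes overlapped one under DMSO, beside 81.9% of all tested genes. The size for Col26a1 depended on day 0, where it had 2 and 16 counts: 2.92 with both libraries, 4.72 without replicate 2 and 2.30 without replicate 1. For Col13a1, with 6 and 3 counts at day 0, it was 2.91 with both libraries, 2.25 without day 0 replicate 2 and 3.74 without replicate 1. Col23a1 was no longer called without DMSO replicate 1 (1.06, adjusted p 0.0653). Col25a1, the last transmembrane gene, had 3 to 20 counts per library and was called in no comparison.

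With 4-PBA against DMSO none of these 8 genes was called, beside 4.90% of all tested genes. Col13a1 had the largest value, -1.07 (SE 0.492, adjusted p 0.254), with 35 and 47 counts under DMSO and 19 and 16 under 4-PBA. Col7a1 stood at -0.050 (SE 0.0809), Col17a1 at -0.016 (SE 0.144), Col15a1 at -0.12 (SE 0.18) and Col28a1 at 0.14 (SE 0.158).

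**Figure D4:**
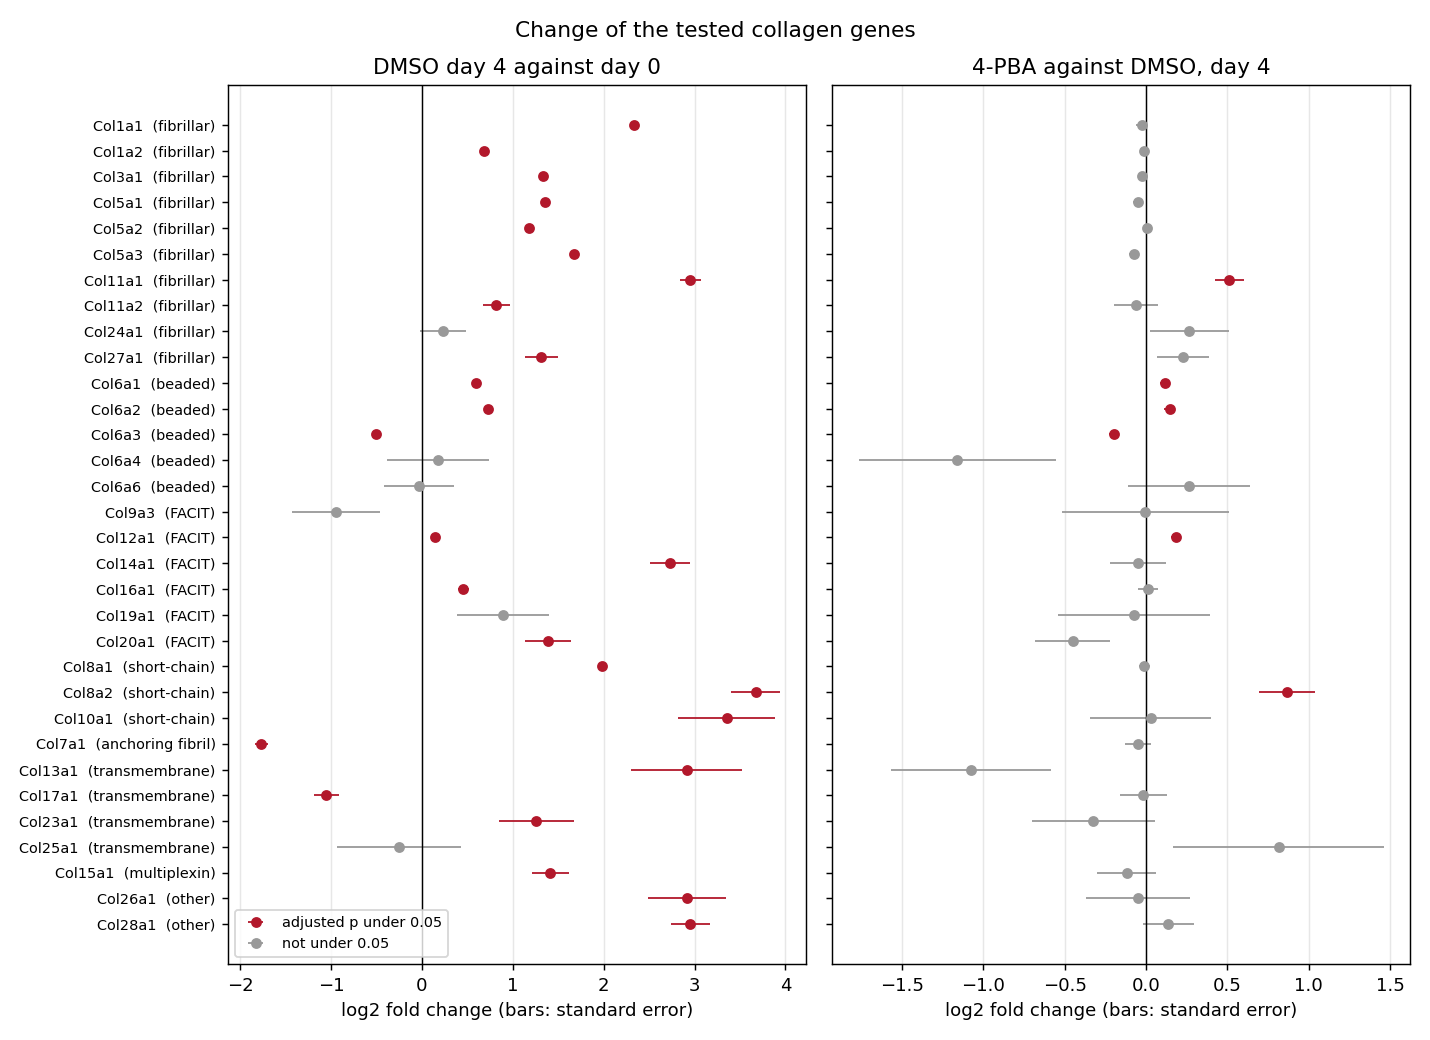
Log2 fold change of the 32 tested members with its standard error, for DMSO at day 4 against day 0 (left) and 4-PBA against DMSO (right); the horizontal scales differ. On the left 23 genes are called higher and 3 lower, and on the right Col11a1, Col6a1, Col6a2, Col12a1 and Col8a2 are called higher and Col6a3 lower.

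Against day 0, the 4-PBA libraries gave 22 members higher and 3 lower, that is 25 of 32 or 78.1%, beside 65.6% of all tested genes (33.2% higher and 32.4% lower). At 2-fold or more 15 were higher and 2 lower, where 12.8% and 8.46% of all tested genes met these rules (21.2% in either direction), and 29 members did not overlap, beside 81.8% of all tested genes. This comparison shares the day 0 libraries with that of DMSO, so the values stand side by side only. The log2 fold change against day 0 was 2.31 under 4-PBA and 2.34 under DMSO for Col1a1, 0.67 and 0.68 for Col1a2, and 1.31 and 1.34 for Col3a1. It was -0.70 and -0.50 for Col6a3, 0.72 and 0.60 for Col6a1, and 0.87 and 0.73 for Col6a2. For Col8a2 it was 4.54 and 3.67, for Col11a1 3.47 and 2.95, and for Col12a1 0.32 and 0.14. Col23a1 was not called under 4-PBA (0.94, SE 0.426, adjusted p 0.0531), and Col13a1, at 1.84 (SE 0.657, adjusted p 0.0142), lost its call without day 0 replicate 2 (1.18, adjusted p 0.178) and without 4-PBA replicate 1 (1.72, adjusted p 0.0583). Col23a1 gained one without 4-PBA replicate 1 (1.26, adjusted p 0.0221).

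Collagen chains need a set of helpers to become matrix, and a list of 62 such genes was read from the same fit, of which 57 were tested. With DMSO against day 0, 39 of them rose and 9 fell, beside 33.8% higher and 32.6% lower of all tested genes, with a median log2 fold change of 0.51. Between 4-PBA and DMSO 4 rose and 6 fell, beside 2.13% and 2.78% of all tested genes, with a median of 0.018.

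Of the hydroxylation and glycosylation enzymes, 7 of 14 tested rose and 4 fell under DMSO, where 66.3% of all tested genes were called. Plod2, a lysyl hydroxylase whose product directs collagen crosslinks, rose from 83.8 to 182 CPM (log2 fold change 1.12, SE 0.035), and P4ha3, a prolyl hydroxylase subunit, fell from 18.2 to 8.41 CPM (-1.11, SE 0.0866). With 4-PBA only P4ha2, another prolyl hydroxylase subunit, was called, at 107 against 117 CPM (-0.13, SE 0.037, adjusted p 0.0316), while Crtap (0.14, adjusted p 0.0581) and P4ha3 (0.24, adjusted p 0.142) were not. In that comparison 4.90% of all tested genes were called. Of 9 folding and export genes 7 rose under DMSO, where 33.8% of all tested genes rose, led by the channel gene Tmem38b (1.57, SE 0.0807) and the transcription factor gene Creb3l2 (0.75, SE 0.0388). None of the 9 was called under 4-PBA, beside the same 4.90% of all tested genes. The smallest adjusted p-values there were 0.225 for Creb3l1, 0.566 for Creb3l2 and 0.666 for Serpinh1, the collagen-specific chaperone, at 1031 against 1053 CPM.

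Propeptides are cut off outside the cell before fibrils form. Among 8 tested processing genes 4 rose and 2 fell under DMSO, where 66.3% of all tested genes were called. They included Adamts2, an N-propeptidase (1.29, SE 0.0485), and Pcolce2, an enhancer of C-propeptide cleavage, which fell from 195 to 50.3 CPM (-1.96, SE 0.0445). With 4-PBA Pcolce, the related enhancer, was higher at 370.2 against 333 CPM (0.15, SE 0.0297, adjusted p 9.78e-04), and Adamts14 was lower at 129.5 against 143 CPM (-0.14, SE 0.0356, adjusted p 0.0136). Adamts2 was not called under 4-PBA (0.11, adjusted p 0.194). All 5 lysyl oxidase genes, whose enzymes crosslink fibrils, were called under DMSO, 4 higher and 1 lower, beside the same 66.3%, with the largest rises in Loxl1 (1.54, SE 0.0319) and Loxl2 (0.92, SE 0.0369). With 4-PBA Loxl1 was higher (0.11, SE 0.0305, adjusted p 0.0238), Loxl3 lower (-0.20, SE 0.0415, adjusted p 0.00218) and Lox not called (0.041, adjusted p 0.491).

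Fibril-binding proteins showed the largest rises of the list. Dcn, the proteoglycan decorin, rose from 8.15 to 281 CPM under DMSO (5.11, SE 0.0601), and Postn, periostin, from 13.1 to 248 CPM (4.22, SE 0.0573), within a group of 11 tested genes of which 8 rose and 2 fell, beside 33.8% and 32.6% of all tested genes. With 4-PBA Prelp, a small proteoglycan, was higher at 21.7 against 15.2 CPM (0.52, SE 0.0839, adjusted p 1.09e-04), while Thbs1 (-0.093, adjusted p 0.0514) and Fmod (0.59, adjusted p 0.0677) were not called.

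Of 10 tested collagen receptors 9 rose under DMSO, where 33.8% of all tested genes rose, including the integrin genes Itga11 (3.08 to 29.6 CPM, log2 fold change 3.27, SE 0.0851) and Itga10 (3.39 to 22.2 CPM, 2.72, SE 0.0936). With 4-PBA 1 receptor was higher and 3 were lower, where 4.90% of all tested genes were called. Mrc2, an endocytic receptor that takes up collagen for degradation, was higher at 309.6 against 267 CPM (0.21, SE 0.0309, adjusted p 2.56e-05). Ddr2, a receptor tyrosine kinase for fibrillar collagen, was lower at 265 against 292 CPM (-0.14, SE 0.0305, adjusted p 0.00344), and so was Cspg4, a proteoglycan that binds type VI collagen, at 65.4 against 72.8 CPM (-0.15, SE 0.0439, adjusted p 0.0329). The third was Antxr2, named after its value was seen (-0.11, SE 0.0336, adjusted p 0.0435).

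Some counts may hold reads of overlapping genes. In GENCODE M21, exons of Col5a1, Col6a4, Col6a6, Col9a3, Col10a1, Col15a1 and Col22a1 overlap a gene on the opposite strand, and those of Col3a1, Col7a1 and Col20a1 another gene model on the same strand. Among the helpers named above, Plod2, Lox, Loxl2, Loxl3, Pcolce, Thbs1, Ddr2 and Prelp overlap a gene on the opposite strand, and Tmem38b, Loxl2, Pcolce and Itga10 one on the same strand.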

How the data were processed

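RNA-seq was made from 6 libraries in 3 groups. The deposited table holds raw counts per gene symbol on build GRCm39, per the submitters' processing notes; the aligner, counter, annotation and use of strand are not given in the sources used here. Counts were filtered with edgeR's filterByExpr, which left 17433 of 43074 genes, TMM-scaled, and tested with edgeR's quasi-likelihood test (edgeR 4.0.16, R 4.3.3) over all 6 libraries; p-values were adjusted by Benjamini-Hochberg across every tested gene, and calls were made at an adjusted p-value under 0.05. The residual degrees of freedom were 3, and each gene's spread was moderated toward that of all genes, with a median of 30.4 prior degrees of freedom. Levels per kilobase used the longest protein-coding transcript of GENCODE M21, with all annotated exons as an alternative added after seeing the data. The procedure was also run on counts simulated from the spread fitted to these libraries. Such counts cannot show whether the replicates are technical. All tested members were described. Of each helper role, the text names the 3 genes with the smallest adjusted p with 4-PBA and the 2 with the largest change with DMSO, among genes of at least 5 CPM. Members, lists and motifs were chosen with earlier results of these data known. Ratios of Col3a1, Col5a1, Col5a3, Col11a1 and Col12a1 were added after seeing the data. Other scalings, filters, tests (DESeq2 1.42.0, limma 3.58.1) and left-out libraries were tried. The 7 collagen genes outside the rule were left out.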

Additional observations from a re-analysis of the deposited data

How the results depend on the processing

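Other scalings, filters, tests, samples and a replicate block changed no call of a member that they tested, among 26 calls with DMSO, 6 with 4-PBA and 25 between 4-PBA and day 0. The stricter filter tested 23 members, so it called 19 higher and 3 lower with DMSO and 19 and 3 with 4-PBA against day 0. Levels per kilobase of all annotated exons were added after seeing the data and are given beside the levels they change. The replicate block left the counts at 23 and 3, 5 and 1, and 22 and 3; deviations of libraries with the same replicate number correlated at 0.00425, -0.0873 and -0.0572 over 12796 genes, so the numbers were not taken to pair the libraries. With each library left out in turn, 3 to 5 members were higher and 1 to 3 lower with 4-PBA against DMSO, 22 to 23 higher with DMSO against day 0, and 21 to 22 higher with 4-PBA against day 0. The lone library of that group is then assumed to vary like the others. No called value changed sign. Among values not called, Col1a2 (9.92e-05) and Col9a3 (0.00439) turned positive for 4-PBA against DMSO with library size only, Col9a3 with DESeq2 (0.0027) and with the block (0.0059), and Col6a6 for DMSO against day 0 with limma-voom (0.14) and with the block (0.0024). With 1 library left out, values for 4-PBA against DMSO turned sign within these ranges: Col1a1 -0.090 to 0.039, Col1a2 -0.061 to 0.044, Col5a2 -0.022 to 0.042, Col8a1 -0.058 to 0.040, Col9a3 -0.28 to 0.30, Col10a1 -0.18 to 0.21, Col14a1 -0.17 to 0.071, Col15a1 -0.28 to 0.077, Col16a1 -0.087 to 0.12, Col17a1 -0.11 to 0.097, Col19a1 -0.32 to 0.20 and Col26a1 -0.16 to 0.055. For DMSO against day 0 they did so for Col6a4 (-0.33 to 0.81), Col6a6 (-0.55 to 0.64) and Col25a1 (-0.88 to 1.30), and for 4-PBA against day 0 for Col6a6 (-0.28 to 0.91) and Col25a1 (-0.060 to 2.12). The cause was not tested. DESeq2 gave no adjusted p for 11 members with 4-PBA. Levels under about 1 CPM rest on few counts, and a difference there was often not detectable at this depth.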

Other observations

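Several members lie next to each other in the genome, and their values are given here side by side with no test of shared change. Col3a1 and Col5a2 are neighbours, and their log2 fold changes were 1.34 and 1.18 for DMSO against day 0 and -0.026 and 0.0093 for 4-PBA against DMSO. Col6a1 and Col6a2 are neighbours too, with values of 0.60 and 0.73 and then 0.12 and 0.15. Col6a4, Col6a5 and Col6a6 adjoin each other, and none had more than 47 counts in a library. Col19a1 and Col9a1 adjoin as well, with at most 33 and 3 counts.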
